A study of Mus musculus with 18 samples.

Results

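The effect of the S252W mutation of *Fgfr2* was compared between mandibular bone and mandibular condylar cartilage of mouse embryos, in 12 of the 18 libraries of the series. All libraries of these tissues were included, 3 in each of 4 groups, and the 6 libraries of Meckel's cartilage were left out. The quantity compared is a difference of effects. It is the log2 fold change of *Fgfr2*+/S252W over *Fgfr2*+/+ in bone minus the same log2 fold change in condylar cartilage, so that a positive value marks a gene whose effect was more positive in bone. All embryos were female, of the strain C57BL/6, and were taken at E16.5. *Fgfr2*+/S252W embryos, labelled Fgfr2S252W, carried the mutation of the Apert syndrome model on 1 allele, and *Fgfr2*+/+ embryos, labelled WT, were littermates without it. Both tissues were cut from frozen sections of the head by laser capture, so each library is a captured region of 1 embryo that may hold several cell types, and its RNA was amplified before sequencing.

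FGFR2 is a receptor tyrosine kinase that signals through the ERK cascade after it binds an FGF ligand with heparan sulfate, and the S252W change lies in the linker between its immunoglobulin-like domains, where it widens and strengthens ligand binding. Most mandibular bone forms directly from mesenchyme by osteoblasts and is remodelled by osteoclasts, which resorb mineral by secreting acid through a vacuolar proton pump (V-ATPase) and proteases such as cathepsin K. Condylar cartilage is a secondary cartilage that arises within the periosteum of the mandible. Its chondrocytes proliferate, enlarge and are replaced by bone, and few osteoclasts are present before that replacement starts.

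Total counts of the 12 libraries lay between 8768399 and 15585778. Mitochondrially encoded genes took 20.4% to 36.0% of the counts in bone and 19.4% to 27.7% in condylar cartilage. Markers were in keeping with the tissue labels. The 11 cartilage markers, among them *Sox9*, *Col2a1* and *Acan*, were all higher in condylar cartilage than in bone of *Fgfr2*+/+ embryos (limma adjusted p below the threshold of 0.05), with summed levels of 45111 to 49093 CPM (counts scaled to the TMM-normalized library size) against 377 to 703 CPM. The 9 bone markers, among them *Runx2*, *Sp7* and *Col1a1*, summed to 34669 to 75873 CPM in *Fgfr2*+/+ bone and 61944 to 65338 CPM in *Fgfr2*+/S252W bone, and 5 of them were higher in *Fgfr2*+/+ bone than in condylar cartilage. In condylar cartilage they summed to 11105, 9443 and 20583 CPM in *Fgfr2*+/+ replicates 1, 2 and 3 and to 10981, 11377 and 33605 CPM in the *Fgfr2*+/S252W replicates. The third *Fgfr2*+/S252W condylar library thus came near the lowest *Fgfr2*+/+ bone library in bone marker RNA, and it also had the lowest TMM factor of the 12, 0.725. The third *Fgfr2*+/+ bone library differed from its group, with 20.4% mitochondrial counts against 36.0% and 34.8%, and with 232, 223 and 25.7 CPM of skeletal muscle markers in replicates 1, 2 and 3. Other libraries differed as well, with 7.56, 47.5 and 110 CPM of these markers in the *Fgfr2*+/+ condylar replicates. The median absolute log2 gap to the other 2 libraries of the group was 0.43 in the third *Fgfr2*+/S252W condylar library. It was 0.27 in the third *Fgfr2*+/+ bone library, and 0.33 in the first *Fgfr2*+/S252W and the third *Fgfr2*+/+ condylar library. The third *Fgfr2*+/S252W condylar and the third *Fgfr2*+/+ bone library are called below the libraries that stood apart. Leaving out both was a choice made after the data were seen. For the genes described, values without both are given only where the call for the difference then changed. The other genes described did not pass in that setting.

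No single gene passed the test of the difference between the tissues. The estimated difference was positive in 23 of 25 osteoclast genes and 44 of 48 V-ATPase and lysosome genes, and negative in 31 of 32 cell cycle genes and 11 of 12 small leucine-rich proteoglycans, against 6506 positive and 5632 negative values over all genes. Of the 25 osteoclast genes, 9 had a mean FPKM (counts per length and depth) of at most 1 over the 6 condylar libraries and passed the filter on low values through bone, so that the condylar part of their difference was hardly measured. Of the 12138 genes tested, 0 (0%) had a limma adjusted p below 0.05 for the difference of effects, and the smallest adjusted p was 0.372. A difference was seen at an unadjusted p below 0.05 in 632 genes (5.21%), 318 positive (2.62%) and 314 negative (2.59%). With the embryo as a block, where bone and condylar libraries of 1 number are taken as 1 embryo from their short names, 0 genes passed and 620 (5.11%) had an unadjusted p below 0.05. edgeR's quasi-likelihood test also called 0 genes, with 671 at an unadjusted p below 0.05, and DESeq2 called 17, among them *Tppp3* and *Rpl15*. Leaving out the third *Fgfr2*+/+ bone library gave 3 genes, *Nrk*, *Tppp3* and *Rpl15*, and leaving out also the third *Fgfr2*+/S252W condylar library gave 50, an alternative chosen after the data were seen. Among the 50 were *Rpl15*, *Tppp3*, *Penk*, *Nrk*, *Zfp185*, *Matn2*, *Chrdl1*, *Amot*, *Nab1*, *Atp1b3*, *Enpp1*, *Col2a1* and *Col3a1*. In each tissue alone, 41 of the 12138 genes (0.338%) passed in bone, 29 higher (0.239%) and 12 lower (0.0989%) in *Fgfr2*+/S252W embryos, and 0 passed in condylar cartilage, where 693 genes (5.71%) had an unadjusted p below 0.05. The bone count rested on single libraries. It was 0, 6 and 408 without *Fgfr2*+/+ bone replicates 1, 2 and 3, and 7, 1 and 11 without *Fgfr2*+/S252W bone replicates 1, 2 and 3. It was 19 and 114 without *Fgfr2*+/S252W condylar replicates 2 and 3.

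The median standard error was 0.34 for the difference of effects, 0.22 for the effect in bone and 0.25 for that in condylar cartilage, so the median 95% interval of the difference reached 0.73 on the log2 scale to either side. A difference of less than about that size was not detectable in most genes with 3 libraries per group. Estimated differences of at least 1 were present in 844 genes. The median difference over all genes was 0.03. Across genes, which are not independent replicates, the effects in bone and condylar cartilage correlated at 0.173, and they had the same sign in 6758 genes (55.7%).

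**Figure D1:**
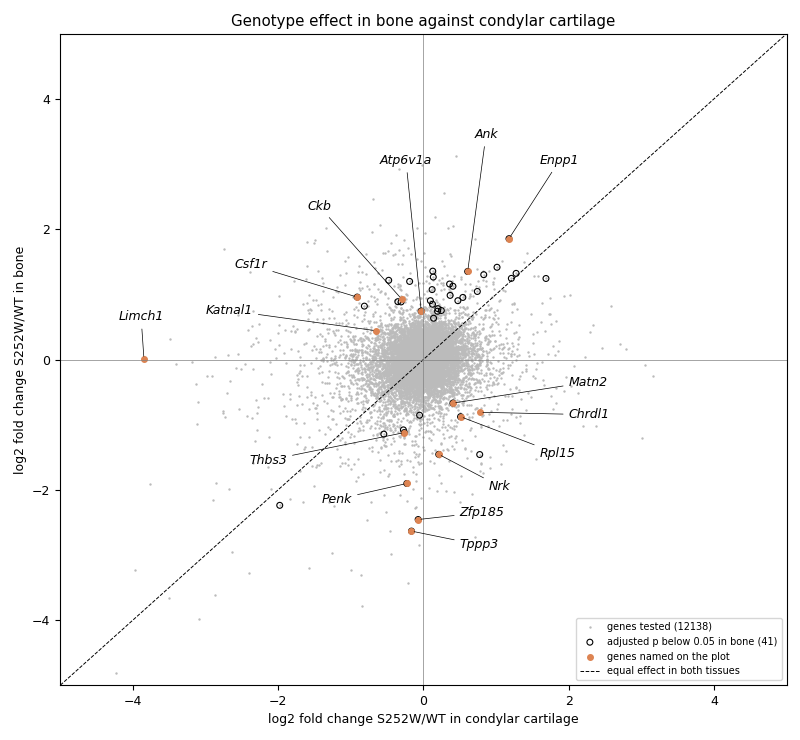
Log2 fold change of *Fgfr2*+/S252W over *Fgfr2*+/+ in bone (vertical axis) against that in condylar cartilage (horizontal axis) for the 12138 genes tested. Open circles are the 41 genes past the threshold in bone, orange points are named genes, and the dashed line marks equal effects. *Tppp3* and *Zfp185* lie far below the line and *Csf1r* and *Limch1* to its left, while *Enpp1* is positive on both axes.

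The 12 genes with the smallest p among negative differences were *Rpl15*, *Tppp3*, *Matn2*, *Penk*, *Nrk*, *Zfp185*, *Amot*, *Chrdl1*, *Nab1*, *Cd55*, *Tmem119* and *Ccnd1*. None passed the threshold for the difference, with limma adjusted p-values from 0.372 to 0.719. Of the 12, 6 passed in bone, where they fell in *Fgfr2*+/S252W embryos, as did 0.0989% of all genes. In all 12 every *Fgfr2*+/S252W bone library was below every *Fgfr2*+/+ bone library, as in 9.09% of all genes. In 7 of the 12 every *Fgfr2*+/S252W condylar library was above every *Fgfr2*+/+ one, as in 4.48% of all genes. The log2 difference of bone and condylar libraries of 1 number lay apart between the genotypes in all 12, as in 10.1% of all genes in either direction. These genes were ranked on the same libraries, so the counts are a description.

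*Rpl15* (positions in mm10: ENSMUSG00000012405, chromosome 14 from 18267823 to 18271391, minus strand), which encodes a protein of the large ribosomal subunit, had the smallest p. It measured 49.3, 55.8 and 45.5 CPM in *Fgfr2*+/S252W bone and 104, 102 and 73.8 CPM in *Fgfr2*+/+ bone. In condylar cartilage it measured 62.8, 67.3 and 57.5 CPM in *Fgfr2*+/S252W and 39.5, 39.7 and 54.5 CPM in *Fgfr2*+/+ embryos. All mutant libraries were thus below all control libraries in bone and above all of them in condylar cartilage. The log2 fold change was -0.88 (standard error 0.16, limma adjusted p = 0.0319) in bone and 0.51 (standard error 0.18, limma adjusted p = 0.801) in condylar cartilage, and the difference was -1.39 (95% interval -1.91 to -0.87, limma adjusted p = 0.372). Without the third *Fgfr2*+/+ bone library it was -1.59 (limma adjusted p = 0.0215), and without the third *Fgfr2*+/S252W condylar library as well -1.61 (limma adjusted p = 0.00606). Reads of ribosomal protein genes can match processed copies elsewhere in the genome, and reads with several matches were not counted, so the level of *Rpl15* is uncertain. Over 88 cytosolic ribosomal protein genes the median difference was -0.14 (-0.27 without *Fgfr2*+/+ bone replicate 3 to -0.06 without *Fgfr2*+/S252W condylar replicate 1), with 66 negative and 22 positive.

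*Tppp3*, a tubulin-binding protein gene known as a marker of tendon sheath cells, measured 1.27, 1.55 and 1.59 CPM in *Fgfr2*+/S252W bone and 13.3, 10.3 and 6.04 CPM in *Fgfr2*+/+ bone. Condylar levels were 12.1, 14.5 and 15.3 CPM and 16.4, 15.2 and 14.4 CPM and overlapped. The gene fell in bone, at -2.63 on the log2 scale (standard error 0.38, limma adjusted p = 0.00949), while its condylar log2 fold change was -0.16 (standard error 0.24), a difference of -2.47 (95% interval -3.43 to -1.51, limma adjusted p = 0.372). Without the third *Fgfr2*+/+ bone library it was -2.85 (limma adjusted p = 0.00887), and without both of the libraries that stood apart -2.76 (limma adjusted p = 0.00606). *Fgfr2*+/S252W bone therefore stood alone among the 4 groups, with *Fgfr2*+/+ bone replicates 1 and 2 close to the condylar levels.

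*Penk* (proenkephalin), *Nrk* (a kinase of the germinal center kinase family) and *Zfp185* (a LIM domain protein of the actin cytoskeleton) also fell in bone with overlapping condylar groups. *Penk* had 6.53, 6.57 and 5.24 CPM in *Fgfr2*+/S252W bone against 29.2, 21.2 and 19.6 CPM in *Fgfr2*+/+ bone, and 34.9, 22.3 and 43.8 against 33.3, 41.5 and 38.1 CPM in condylar cartilage. *Nrk* had 30.3, 46.9 and 43.0 against 149.5, 130.3 and 66.1 CPM in bone and 359, 361 and 485 against 306, 352 and 373 CPM in condylar cartilage. In both genes the bone groups lay apart and the condylar groups overlapped, and the third *Fgfr2*+/+ bone library was the lowest of its group. In *Nrk* the *Fgfr2*+/+ bone libraries were also far below the condylar ones. The 3 genes had bone log2 fold changes of -1.90, -1.46 and -2.46 (limma adjusted p = 0.00801, 0.0265 and 0.0264), and their condylar values were -0.23, 0.21 and -0.07. The differences were -1.67, -1.67 and -2.38 (limma adjusted p = 0.499, 0.534 and 0.613). Without both libraries that stood apart, the differences were -1.63, -1.90 and -3.02 (limma adjusted p = 0.0421, 0.00263 and 0.00263), and for *Nrk* -2.06 without the third *Fgfr2*+/+ bone library alone (limma adjusted p = 0.00887).

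A second arrangement, with bone values below and condylar values above those of the controls, was seen in *Matn2*, *Amot*, *Chrdl1*, *Nab1*, *Cd55* and *Tmem119* as in *Rpl15*. *Matn2*, which encodes the matrix adaptor matrilin 2, measured 28.6, 27.4 and 28.4 CPM in *Fgfr2*+/S252W and 45.6, 44.6 and 44.0 CPM in *Fgfr2*+/+ bone, and 28.4, 33.6 and 25.4 against 19.8, 22.5 and 23.9 CPM in condylar cartilage. Neither pair of groups overlapped. *Matn2* fell in bone (log2 fold change -0.67, limma adjusted p = 0.0489) and its condylar value was 0.41, for a difference of -1.08 (95% interval -1.52 to -0.64, limma adjusted p = 0.402). *Chrdl1*, which encodes a secreted BMP antagonist, had 32.6, 26.9 and 34.1 against 50.8, 51.4 and 60.9 CPM in bone and 163, 152 and 356 against 99.4, 123 and 138 CPM in condylar cartilage. The highest condylar value was that of the third *Fgfr2*+/S252W library. Its log2 fold changes were -0.81 and 0.78, and neither passed (limma adjusted p = 0.265 and 0.744). The difference was -1.59 (limma adjusted p = 0.645). *Ccnd1* (cyclin D1), a gene induced by FGF and ERK signaling, had 37.0, 50.4 and 43.0 against 74.0, 85.5 and 55.7 CPM in bone and 53.8, 69.8 and 68.4 against 41.7, 26.1 and 59.0 CPM in condylar cartilage, where the groups overlapped. Its difference was -1.36 (95% interval -2.09 to -0.64, limma adjusted p = 0.719). Without both libraries that stood apart, *Matn2*, *Chrdl1*, *Amot* and *Nab1* had differences of -1.17, -1.13, -1.15 and -1.26 (limma adjusted p = 0.0291, 0.0384, 0.0378 and 0.0290).

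The 12 genes with the smallest p among positive differences had adjusted p-values from 0.473 to 0.719 (limma), and again none passed. They include *Katnal1*, *Csf1r*, *Atp1b3*, *Limch1*, *Enox1*, *Ckb*, *Sirpa*, *Atp6v1a*, *Arel1* and *Mroh1*. Of the 12, 2 passed in bone, where they rose (*Csf1r* and *Atp6v1a*), as did 0.239% of all genes, and in 4 the libraries lay apart in opposite directions in the tissues. In 11 of them the *Fgfr2*+/S252W bone libraries lay above all controls, as in 12% of all genes, and in 5 the *Fgfr2*+/S252W condylar libraries lay below all controls, as in 5.19% of all genes. Among all genes, 39 (0.321%) were higher in bone and lower in condylar cartilage with no overlap in either tissue, and 40 (0.330%) were lower in bone and higher in condylar cartilage.

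*Katnal1*, which encodes a subunit of the microtubule-severing katanin family, measured 76.6, 67.4 and 83.1 CPM in *Fgfr2*+/S252W and 115, 119 and 121 CPM in *Fgfr2*+/+ condylar cartilage. In bone it lay between 10.3 and 12.8 CPM in *Fgfr2*+/S252W and between 8.48 and 8.68 CPM in *Fgfr2*+/+ embryos. All condylar mutant libraries were below and all bone mutant libraries above their controls. Its condylar log2 fold change of -0.65 (standard error 0.12, limma adjusted p = 0.689) had the smallest limma p of all genes in that tissue, 9.65e-05 before adjustment. With 0.44 in bone the difference was 1.09 (95% interval 0.63 to 1.56, limma adjusted p = 0.473). It passed in 2 of 32 other settings, at 1.08 with DESeq2 (DESeq2 adjusted p = 0.00224) and 1.19 with sample quality weights (limma adjusted p = 0.0433). *Limch1*, a gene of actomyosin regulation, was at 0, 1 and 1 counts in *Fgfr2*+/S252W and 9, 15 and 26 counts in *Fgfr2*+/+ condylar cartilage, with a bone log2 fold change of 0.01. These condylar counts are too few for a stable fold change.

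*Atp1b3* encodes a beta subunit of the sodium-potassium pump and *Ckb* the brain-type creatine kinase, which is abundant in osteoclasts. *Atp1b3* had 168, 149 and 133 against 72.9, 103 and 102 CPM in bone and 347, 292 and 426 against 409.6, 446 and 436 CPM in condylar cartilage. *Ckb* had 253, 289.7 and 222 against 109, 148 and 147 CPM in bone and 30.8, 20.8 and 30.6 against 28.9, 26.4 and 48.2 CPM in condylar cartilage. Bone values were apart in both genes and condylar values overlapped. The differences were 1.00 and 1.22 (limma adjusted p = 0.645 and 0.719). That of *Atp1b3* was 1.22 without both libraries that stood apart (limma adjusted p = 0.0256).

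**Figure D2:**
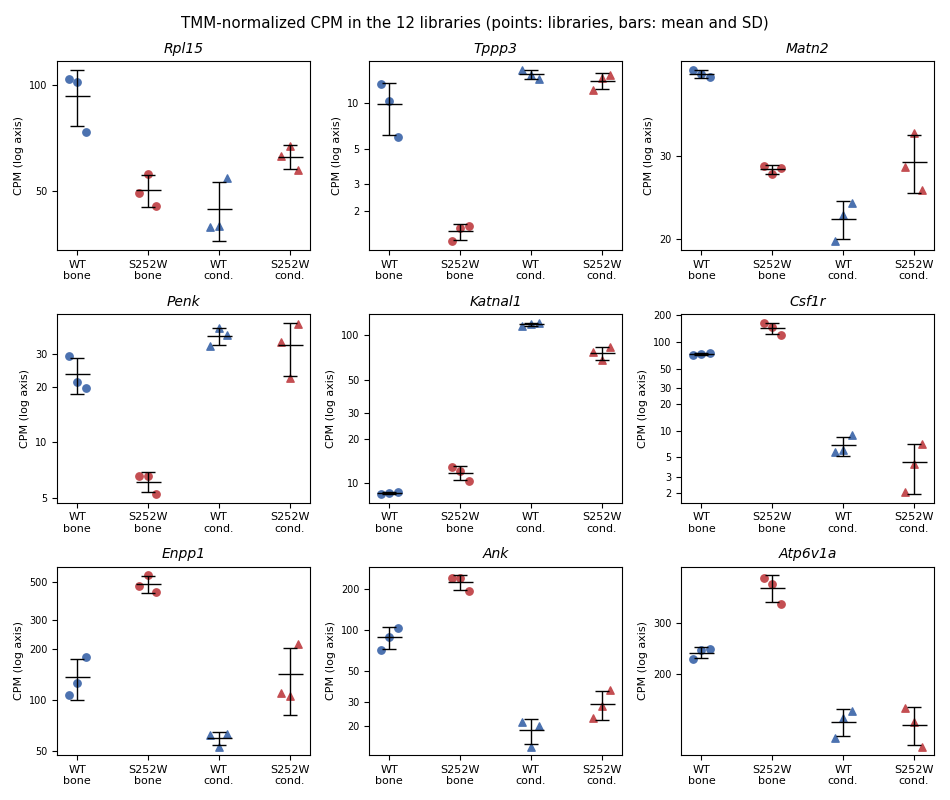
TMM-normalized CPM (log axis) of 9 genes in the 12 libraries, with points for libraries and bars for the mean and SD of each group of 3. In *Rpl15* and *Matn2* the red mutant points lie below the blue controls in bone and above them in condylar cartilage, in *Tppp3* and *Penk* mutant bone lies below the other groups, and in *Enpp1* and *Ank* the mutant points are higher in both tissues.

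The osteoclast genes had mostly positive differences, and many were barely present in condylar cartilage, with 10 of 25 below 5 CPM in *Fgfr2*+/+ embryos. Of 25 genes of resorption and osteoclast fusion that were tested, 23 had a positive and 2 a negative difference, with a median of 0.66 against 0.03 over all genes. The median effect was 0.77 in bone and 0.02 in condylar cartilage. In bone 8 of the 25 passed, all higher in *Fgfr2*+/S252W embryos, against 0.239% of all genes. For the difference 0 passed, and at an unadjusted p below 0.05 there were 7 positive values, against 2.62% of all genes, and 1 negative value (*Cd109*, -0.68), against 2.59%. The median was between 0.54 and 0.92 when each of the 12 libraries was left out, and 1.04 without both libraries that stood apart. The filter asked for an FPKM over 1 in 50% of the libraries, and 7 of the 25 were over it in no condylar library, so the signs of such members rest on bone. Among the 16 with a mean condylar FPKM over 1, a split made after the data were seen, 15 differences were positive and 1 negative, with a median of 0.69 from median effects of 0.62 in bone and 0.02 in condylar cartilage. The list was chosen with earlier results of these bone libraries known, so its direction in bone is no independent evidence. In bulk samples, fewer cells of a type and less RNA per cell cannot be told apart.

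The 5 osteoclast markers *Acp5*, *Ctsk*, *Mmp9*, *Oscar* and *Calcr* summed to 2481, 2227 and 1781 CPM in *Fgfr2*+/S252W bone and 945, 1218 and 1209 CPM in *Fgfr2*+/+ bone. In condylar cartilage they summed to 15.1, 19.7 and 33.2 CPM and 19.2, 14.3 and 21.0 CPM. All bone mutant libraries lay above all bone controls, the condylar groups overlapped, and condylar sums were between 14.3 and 33.2 CPM, mostly from *Ctsk*. *Calcr*, the calcitonin receptor, had 0, 3 and 0 counts in the *Fgfr2*+/S252W and 0, 0 and 0 counts in the *Fgfr2*+/+ condylar libraries. *Dcstamp*, needed for osteoclast fusion, had 4, 0 and 0 and 0, 0 and 1 counts. Such counts are too few to measure an effect of the size seen in bone. The largest of the marker sums in condylar cartilage was that of the third *Fgfr2*+/S252W library, the same library with the most bone marker RNA, and the part of this in the condylar values was not tested.

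**Figure D3:**
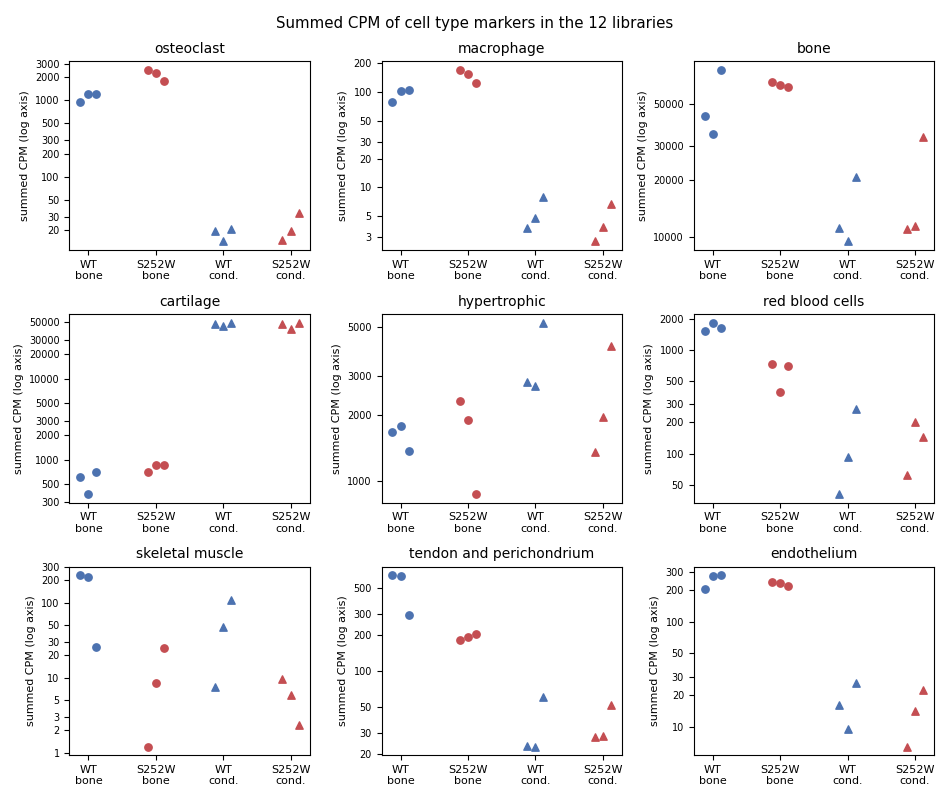
Summed CPM (log axis) of cell type markers in the 12 libraries, in 1 panel for each cell type. Osteoclast sums are about 1781 to 2481 CPM in *Fgfr2*+/S252W bone, 945 to 1218 CPM in *Fgfr2*+/+ bone and below 34 CPM in condylar cartilage, and cartilage sums are high only in condylar libraries.

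Among the 8 osteoclast genes that the study names, *Csf1r* and *Tnfrsf11a* encode the receptors for CSF1 and RANKL, which drive osteoclast formation. *Csf1r* measured 164, 149 and 120.0 CPM in *Fgfr2*+/S252W and 72.2, 72.8 and 75.8 CPM in *Fgfr2*+/+ bone, and 2.05, 4.25 and 7.11 against 5.81, 6.05 and 8.84 CPM in condylar cartilage. The bone groups lay apart and the condylar groups overlapped at levels far below those of bone. *Csf1r* rose in bone (log2 fold change 0.96, standard error 0.17, limma adjusted p = 0.0265) and had -0.91 in condylar cartilage (standard error 0.39, limma adjusted p = 0.828). The difference of 1.87 (95% interval 0.96 to 2.78, limma adjusted p = 0.645) was the largest of the 8. *Tnfrsf11a* and *Acp5* had differences of 1.66 and 1.63 (limma adjusted p = 0.899 and 0.895). Their condylar counts were few, 9, 5 and 27 against 16, 15 and 25 for *Tnfrsf11a* and 8, 9 and 18 against 33, 10 and 21 for *Acp5*. With 1 library left out the differences lay between 1.22 and 2.37 for *Tnfrsf11a* and between 1.16 and 2.11 for *Acp5*, in both genes highest without the third *Fgfr2*+/S252W condylar library, and that of *Tnfrsf11a* was 1.02 with DESeq2.

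*Ctsk* (cathepsin K) was the only gene of the 8 with more than 10 CPM in every condylar library. It had 958, 909 and 722 against 482, 579 and 482 CPM in bone and 13.5, 16.8 and 22.3 against 14.6, 12.8 and 16.4 CPM in condylar cartilage. It rose in bone (log2 fold change 0.74, limma adjusted p = 0.0442), its condylar groups overlapped at a log2 fold change of 0.20 (standard error 0.23), and the interval of its difference, -0.04 to 1.13, included 0. The remaining values were 0.40 for *Calcr*, 0.80 for *Il1r1* (interleukin 1 receptor), 0.77 for *Itgb3* (integrin beta 3) and -0.44 for *Oscar*. None of these passed. *Calcr* turned to -0.44 and *Itgb3* to -0.05 without *Fgfr2*+/S252W condylar replicate 1, and *Oscar* turned to 0.38 without *Fgfr2*+/+ condylar replicate 1. *Calcr* also turned to -2.05 with edgeR.

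The V-ATPase and lysosome genes are expressed more broadly, and 4 of 48 were below 5 CPM in condylar cartilage of *Fgfr2*+/+ embryos. Of the 48, 44 had a positive difference, with a median of 0.40, from a median effect of 0.35 in bone and -0.04 in condylar cartilage. With each library left out in turn the median lay between 0.31 and 0.45. In bone 5 of the 48 rose past the threshold, against 0.239% of all genes. For the difference 0 passed and 9 had an unadjusted p below 0.05, all positive, against 2.62% of all genes, among them *Atp6v1a*, *Atp6v1b2*, *Ctsd*, *Gnptab*, *Hexa* and *Npc1*.

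*Atp6v1a* (ENSMUSG00000052459, chromosome 16 from 44085402 to 44139705, minus strand) encodes the catalytic subunit of the pump. It measured 433, 412 and 352 CPM in *Fgfr2*+/S252W and 225, 242 and 245 CPM in *Fgfr2*+/+ bone, and 153, 136 and 112 against 120.4, 141 and 149 CPM in condylar cartilage. Mutant bone was above all other groups, and the condylar groups overlapped. It rose in bone (log2 fold change 0.74, standard error 0.14, limma adjusted p = 0.0266) against -0.03 in condylar cartilage (standard error 0.14), a difference of 0.77 (95% interval 0.35 to 1.20, limma adjusted p = 0.719).

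*Gnptab*, which tags enzymes for the lysosome, had 126, 129 and 114 against 53.7, 74.8 and 70.2 CPM in bone and 72.2, 60.7 and 49.1 against 65.7, 57.7 and 48.0 CPM in condylar cartilage. It rose in bone (limma adjusted p = 0.0266), its condylar groups overlapped, and the difference was 0.81 (limma adjusted p = 0.841). *Atp6v0d2*, a pump subunit of osteoclasts, rose in bone with 0.88, but its condylar counts were 3, 8 and 5 and 7, 12 and 3.

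Promoter sequences are shown for 4 genes that carry the results, *Atp6v1a* for the lysosome genes, *Rpl15* for the smallest p, and *Enpp1* and *Ank* for positive effects in both tissues. Each is the 250 bases before the start of a RefSeq transcript on its own strand, on GRCm38.p6. The Ensembl models of *Atp6v1a* and *Rpl15*, whose ends are printed with these genes, reach further, so these windows lie inside them. In the sequences, capitals mark matches on either strand to the E-box CACGTG, the GC box GGGCGG, the ETS site CCGGAAG and the TATA box TATAAA. The regions are chr16:44139260-44139509, minus strand (*Atp6v1a*), chr14:18270987-18271236, minus strand (*Rpl15*), chr10:24712160-24712409, minus strand (*Enpp1*) and chr15:27466427-27466676, plus strand (*Ank*).
Atp6v1a: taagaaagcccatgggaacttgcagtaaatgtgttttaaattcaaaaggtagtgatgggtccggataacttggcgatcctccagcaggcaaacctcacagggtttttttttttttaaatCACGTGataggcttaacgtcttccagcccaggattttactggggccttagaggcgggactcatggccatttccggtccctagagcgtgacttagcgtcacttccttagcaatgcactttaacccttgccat
Rpl15: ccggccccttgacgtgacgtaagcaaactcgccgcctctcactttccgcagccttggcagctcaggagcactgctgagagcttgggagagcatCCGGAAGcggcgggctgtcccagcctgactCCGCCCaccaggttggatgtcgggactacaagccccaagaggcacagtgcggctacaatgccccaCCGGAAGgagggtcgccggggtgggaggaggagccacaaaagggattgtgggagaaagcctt
Enpp1: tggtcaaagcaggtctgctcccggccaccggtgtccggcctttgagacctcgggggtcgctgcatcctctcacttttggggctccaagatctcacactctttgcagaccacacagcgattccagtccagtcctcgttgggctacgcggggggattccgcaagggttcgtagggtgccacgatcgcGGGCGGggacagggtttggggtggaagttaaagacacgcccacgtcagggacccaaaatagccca
Ank: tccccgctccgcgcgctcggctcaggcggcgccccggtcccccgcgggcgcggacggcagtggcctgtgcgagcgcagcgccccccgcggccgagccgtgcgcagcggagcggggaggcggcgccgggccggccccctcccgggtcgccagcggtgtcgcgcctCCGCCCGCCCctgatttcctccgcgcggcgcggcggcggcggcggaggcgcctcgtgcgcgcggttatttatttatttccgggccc

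The E-box of *Atp6v1a* begins 131 bases before the RefSeq start. Of the 48 V-ATPase and lysosome genes, 35 had a promoter in the table, and 11 of these 35 (31.4%) held the E-box, against 6.86% of the 26994 genes with a promoter. The list was also above all genes for the GC box (62.9% against 35.3%) and the ETS site (17.1% against 7.82%). The 26994 genes include genes that were not tested here, and shares over the tested genes alone were not computed. Since some genes have several windows, the share with the E-box was 23.9% of 46 windows in the list and 6.02% of all 32817 windows. *Rpl15* held the ETS site at 157 and 62 bases before its RefSeq start and a GC box. *Enpp1* and *Ank* held GC boxes. No TATA box matched in the 4 windows. A match describes the letters of a window and not the binding of a factor.

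*Enpp1*, which makes inorganic pyrophosphate (PPi) from nucleotides outside the cell, and *Ank*, which is needed for the release of PPi, had positive effects in both tissues. *Enpp1* (ENSMUSG00000037370, chromosome 10 from 24637914 to 24712158, minus strand) measured 479, 552 and 438 CPM in *Fgfr2*+/S252W and 107, 126 and 179 CPM in *Fgfr2*+/+ bone. In condylar cartilage it measured 109, 106 and 214 CPM in *Fgfr2*+/S252W and 62.2, 52.8 and 62.4 CPM in *Fgfr2*+/+ embryos. Mutant libraries were above controls in both tissues without overlap, and the highest condylar value was that of the third *Fgfr2*+/S252W library. Over all genes, 120 (0.989%) lay higher in both tissues without overlap.

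The log2 fold change of *Enpp1* was 1.86 in bone (standard error 0.23, limma adjusted p = 0.00636) and 1.18 in condylar cartilage (standard error 0.25, limma adjusted p = 0.689). The condylar value thus did not pass over all genes, and its unadjusted p in the limma fit was 2.58e-04. The difference was 0.68 (95% interval -0.04 to 1.39, limma adjusted p = 0.931), and the bone minus condylar log2 values of libraries with the same number were 2.13, 2.38 and 1.04 in *Fgfr2*+/S252W and 0.79, 1.26 and 1.52 in *Fgfr2*+/+ embryos. These overlapped, with an exact two-sided permutation p of 0.3, where 3 embryos against 3 cannot go below 0.1. The difference was 0.99 without the third *Fgfr2*+/S252W condylar library (limma adjusted p = 0.357) and 1.20 without that and the third *Fgfr2*+/+ bone library, where it passed (limma adjusted p = 0.0206). It was lowest, at 0.38, without both libraries of embryo 2 of *Fgfr2*+/S252W.

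*Ank* (ENSMUSG00000022265, chromosome 15 from 27466677 to 27594909, plus strand) measured 240.5, 242 and 193 CPM in *Fgfr2*+/S252W and 72.3, 88.8 and 105 CPM in *Fgfr2*+/+ bone, and 23.0, 27.7 and 36.7 against 21.5, 14.1 and 20.0 CPM in condylar cartilage. The groups lay apart in both tissues, and the gap in condylar cartilage was small. Its log2 fold change was 1.35 in bone (standard error 0.17, limma adjusted p = 0.00636) and 0.61 in condylar cartilage (standard error 0.24, limma adjusted p = 0.824), and the difference was 0.74 (95% interval 0.12 to 1.37, limma adjusted p = 0.911). *Xpr1*, the phosphate exporter gene, rose in bone with 0.78 (limma adjusted p = 0.0265), had 0.20 in condylar cartilage, where the groups overlapped, and differed by 0.58 (limma adjusted p = 0.856).

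Of 11 genes of phosphate and PPi handling tested, 7 had a positive and 4 a negative difference, with a median of 0.13. Without *Fgfr2*+/S252W condylar replicate 2 the median was -0.06, with 5 positive, and without replicate 3 of that group 0.41, with 9 positive. *Alpl*, the phosphatase that hydrolyses PPi, had log2 fold changes of 0.06 and -0.07 in bone and condylar cartilage. *Nt5e*, which makes adenosine from the AMP that such reactions leave, had -1.17 and 0.38 and a difference of -1.55 (limma adjusted p = 0.853). Its bone counts were low, with 8.75, 4.08 and 1.72 against 11.2, 6.64 and 9.65 CPM that overlapped.

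**Figure D4:**
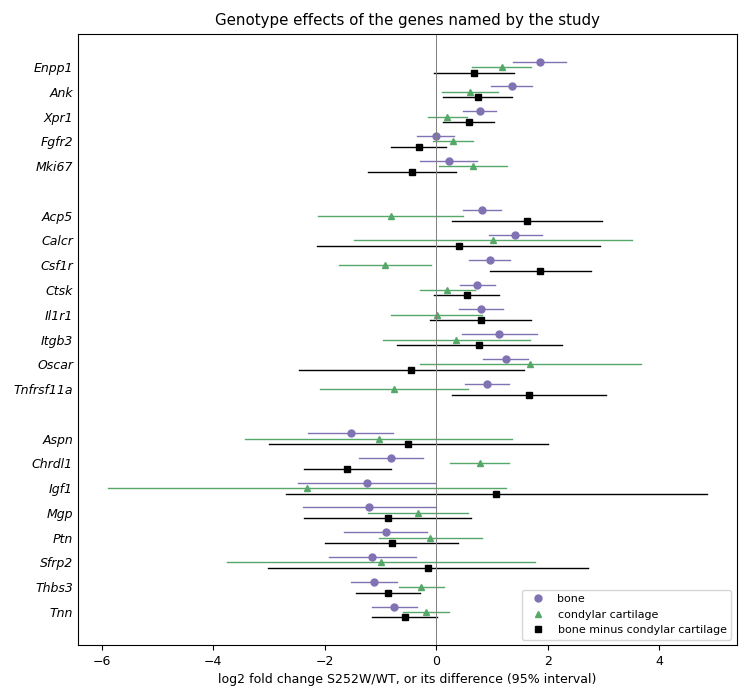
Log2 fold change of *Fgfr2*+/S252W over *Fgfr2*+/+ in bone (circles) and condylar cartilage (triangles) and the difference of both (squares), with 95% intervals, for 21 genes the study names. *Enpp1* and *Ank* are positive in both tissues. The condylar intervals of *Calcr*, *Oscar*, *Aspn*, *Igf1* and *Sfrp2* span several log2 units.

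The study singles out 8 genes of ossification, a choice made on these bone libraries. Their median effect was -1.13 in bone and -0.29 in condylar cartilage, and 7 of 8 had a negative difference. The condylar median ran from -0.52 without *Fgfr2*+/S252W condylar replicate 2 to 0.01 without *Fgfr2*+/+ condylar replicate 3, and was -0.11 without *Fgfr2*+/S252W condylar replicate 3. Between 5 (without *Fgfr2*+/+ condylar replicate 1) and 8 differences were negative with 1 library left out. *Thbs3* (thrombospondin 3) measured 10.1, 10.2 and 7.36 against 20.9, 18.8 and 20.3 CPM in bone and 22.5, 23.1 and 17.9 against 24.3, 22.3 and 31.3 CPM in condylar cartilage. It fell in bone (log2 fold change -1.12, limma adjusted p = 0.0258), its condylar groups overlapped at -0.26, and the difference was -0.86 (limma adjusted p = 0.841). *Tnn* (tenascin N) had -0.75 and -0.19, *Ptn* (pleiotrophin) -0.90 and -0.10, and *Mgp* (matrix Gla protein, an inhibitor of calcification) -1.20 and -0.32 in bone and condylar cartilage, and none of these passed. *Aspn* (asporin), *Igf1* and *Sfrp2* had condylar values that spread over more than 10-fold within a group. *Igf1*, for instance, measured 0.646, 8.66 and 64.2 CPM in the *Fgfr2*+/+ condylar libraries, and its difference of 1.08 turned to -0.43 without *Fgfr2*+/+ condylar replicate 3 and to -0.19 without *Fgfr2*+/S252W condylar replicate 1.

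The receptors and targets of FGF signaling gave no call in either tissue or for the difference. *Fgfr2* itself measured 273.8, 252.4 and 285.1 against 342, 248 and 237 CPM in bone and 134, 183 and 185 against 128, 125 and 148 CPM in condylar cartilage. The groups overlapped in both tissues, the difference was -0.32 (95% interval -0.81 to 0.17), and counts per gene do not tell the mutant from the normal allele. Among 14 receptors and co-receptors 7 differences were positive and 7 negative, with a median of 0.00. *Gpc3* (glypican 3) was the member with an unadjusted p below 0.05, at 0.40 (limma adjusted p = 0.931). *Fgfr1* had log2 fold changes of 0.55 and 0.58. In 18 feedback regulators and targets the median difference was 0.08 (0.33 without *Fgfr2*+/+ condylar replicate 2 and -0.05 without replicate 3 of that group). *Ccnd1*, given above, was the member with an unadjusted p below 0.05. In bone 17 of the 18 had a positive effect, with a median of 0.30 against 0.02 over all genes. *Ccnd1* was the 1 negative member there. In condylar cartilage 11 of the 18 were positive, with a median of 0.08. The ligands *Fgf1*, *Fgf7* and *Fgf13* were tested and lay below 5 CPM in condylar cartilage of *Fgfr2*+/+ embryos.

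The cell cycle genes had a median difference of -0.46, with 31 of 32 negative. The median effect was -0.09 in bone and 0.37 in condylar cartilage. For the difference 0 of 32 passed, and 3 (*Ube2c*, *Tyms* and *Rrm2*) had an unadjusted p below 0.05, all negative, against 2.59% of all genes. *Rrm2*, a subunit of ribonucleotide reductase, had 14.0, 15.8 and 14.1 against 9.59, 10.3 and 11.7 CPM in condylar cartilage, without overlap, and 30.6, 31.4 and 37.5 against 37.0, 40.8 and 35.1 CPM in bone, with overlap. Its difference was -0.66 (limma adjusted p = 0.856). *Mki67*, a marker of proliferating cells, had 58.3, 106 and 55.6 against 31.4, 39.4 and 74.1 CPM in condylar cartilage and 314, 403 and 443 against 325, 328 and 329 CPM in bone. The groups overlapped in both tissues, with log2 fold changes of 0.66 and 0.23. *Cdkn1c*, the imprinted gene of the cell cycle inhibitor p57, fell in bone with 184, 213 and 224 against 410.2, 352 and 359 CPM (log2 fold change -0.86, limma adjusted p = 0.0258). In condylar cartilage it measured 2241, 1819.9 and 1977 against 2594, 1946 and 1781 CPM, which overlapped, and the difference was -0.80 (limma adjusted p = 0.719). With each library left out the median difference of the cell cycle list lay between -0.67 and -0.28 (-0.28 without *Fgfr2*+/S252W condylar replicate 2 and -0.29 without *Fgfr2*+/+ condylar replicate 1), and between 27 and 32 of its genes were negative.

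The lists of genes that define each tissue had median differences around 0, with members that went both ways. Osteoblast transcription factors had a median difference of -0.10 over 12 genes, with *Runx2* at 0.06 and *Sp7* at -0.10, and osteoblast matrix genes one of -0.05 over 20, with *Col1a1* at 0.14. Cartilage transcription factors and matrix genes had 0.05 over 23. In *Fgfr2*+/+ bone 10 of the 23 lay below 5 CPM, so the bone part of their difference was hardly measured. Of the 23, *Col2a1*, *Matn4* and *Hapln1* had an unadjusted p below 0.05 with a positive and *Acan* with a negative value, against 2.62% and 2.59% of all genes. The bone levels of these 4 were far below those of condylar cartilage. *Col2a1*, the main collagen of cartilage, measured 26098, 23890.2 and 31377 against 26608, 25113 and 28900.4 CPM in condylar cartilage and 269.8, 381 and 383 against 127, 45.7 and 217 CPM in bone. *Acan* (aggrecan) measured 3516, 3481 and 5126 against 4285, 3923 and 6072 CPM in condylar cartilage and 3.62, 1.99 and 0.265 against 8.39, 4.58 and 5.63 CPM in bone. The bone groups lay apart in both genes but in opposite directions, and the condylar groups overlapped. The differences were 1.63 and -1.95 (limma adjusted p = 0.853 and 0.856). That of *Col2a1* was 2.25 without both libraries that stood apart (limma adjusted p = 0.0208). Genes of prehypertrophic and hypertrophic chondrocytes had a median of -0.02 over 17, and *Col10a1*, the collagen of hypertrophic cells, had a condylar log2 fold change of -0.66 (standard error 0.32). With each library left out, the medians of these 4 lists lay between -0.33 and 0.22 and each but the first took both signs.

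Connective tissue genes had mostly negative differences. In 25 genes of perichondrium, tendon and ligament the median difference was -0.50, with 20 negative. *Penk*, *Postn*, *Thbs2* and *Col3a1* had an unadjusted p below 0.05 (4 of 25, all negative, against 2.59% of all genes). In bone 2 of the 25 passed, 1 higher and 1 lower (*Penk*), against 0.239% and 0.0989% of all genes. Without both libraries that stood apart *Col3a1* had -0.68 (limma adjusted p = 0.0471). *Postn* (periostin), a gene of the periosteum, measured 833, 829 and 622 against 1481, 1543 and 896 CPM in bone without overlap and 301, 284 and 288 against 181, 234 and 354 CPM in condylar cartilage with overlap, a difference of -0.99 (limma adjusted p = 0.853). It was -1.501 without both libraries of embryo 3 of *Fgfr2*+/+ (limma adjusted p = 0.0338). The 5 tendon and perichondrium markers *Scx*, *Tnmd*, *Mkx*, *Aspn* and *Ogn*, 3 of which passed the filter, summed to 184, 192 and 205 CPM in *Fgfr2*+/S252W and 642, 627 and 294 CPM in *Fgfr2*+/+ bone, and to at most 59.9 CPM in condylar cartilage. Their part in the bone values of *Tppp3*, *Penk* and *Postn* was not tested. Small leucine-rich proteoglycans of the matrix had a median of -0.79 over 12 genes, 11 of them negative, and the median was -0.30 without the third *Fgfr2*+/S252W condylar library. *Bgn* (biglycan) measured 265, 291 and 562 CPM in the *Fgfr2*+/S252W condylar libraries, the third being the highest.

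The red blood cell markers, 5 globin and heme synthesis genes, summed to 738, 389.9 and 705 CPM in *Fgfr2*+/S252W and 1537, 1839 and 1629 CPM in *Fgfr2*+/+ bone, without overlap. In condylar cartilage they summed to 61.8, 201 and 146 and 40.8, 91.8 and 268 CPM, with overlap. The median difference over 10 red blood cell genes was -1.81, with -0.97 and -2.88 without *Fgfr2*+/+ condylar replicates 1 and 3, and globin genes share reads among near-identical copies, so their single values are uncertain. Over 12138 genes, 21.1% lay apart in bone and 9.67% in condylar cartilage in either direction. Skeletal muscle genes had median effects of -3.43 in bone and -2.89 in condylar cartilage over 8 genes, and in bone most of this RNA was in *Fgfr2*+/+ replicates 1 and 2. Their median difference of -0.82 turned to 0.21 without *Fgfr2*+/S252W bone replicate 1 and to 1.00 without *Fgfr2*+/+ condylar replicate 1, and was -2.08 without *Fgfr2*+/+ condylar replicate 3. The 28 mitochondrially encoded genes had a median difference of -0.73 (-0.46 and -1.08 without *Fgfr2*+/+ bone replicates 1 and 3). Leaving their counts out of the library sizes, together with *Gm42418*, again gave 0 genes for the difference and 41 in bone. The part of these RNAs in the other results was not tested.

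**Figure D5:**
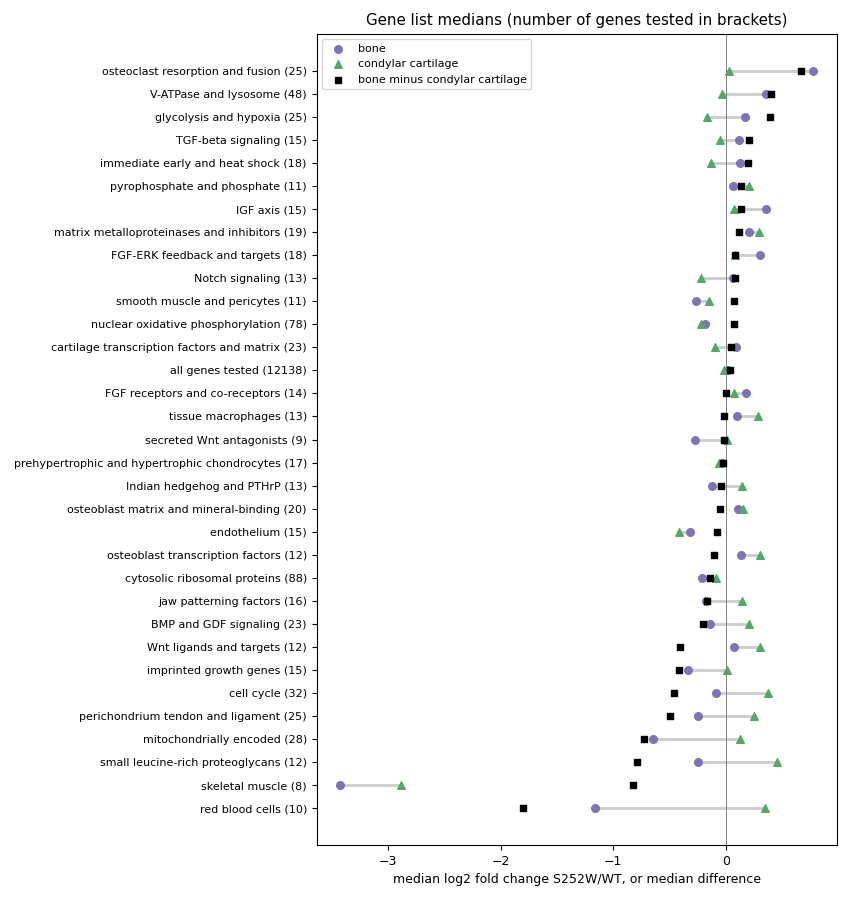
Median log2 fold change of *Fgfr2*+/S252W over *Fgfr2*+/+ in bone (circles) and condylar cartilage (triangles) and median difference (squares) for gene lists with at least 8 genes tested, apart from the 2 lists of genes that the study names, ordered by the difference. Osteoclast genes are at the top with 0.66 and red blood cell genes at the bottom with -1.81, and the values over all genes lie near 0.

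The 41 genes past the threshold in bone can be followed into condylar cartilage. Of the 29 that rose in bone, 22 had a positive and 7 a negative condylar effect, and the median effect was 1.04 in bone and 0.20 in condylar cartilage. Of the 12 that fell, 8 had a negative and 4 a positive condylar effect, with medians of -1.30 and -0.12. The bone values passed a threshold and the condylar values did not have to, so the medians are given as a description of these genes alone. The 95% interval of the difference included 0 in 18 of the 29 and in 3 of the 12.

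*Cyfip2*, a subunit of the actin-regulating WAVE complex, had nearly equal effects, with log2 fold changes of 1.25 in bone (limma adjusted p = 0.0157) and 1.21 in condylar cartilage (limma adjusted p = 0.817). It measured 101, 122 and 129 against 47.4, 38.2 and 64.4 CPM in bone and 6.22, 6.80 and 10.4 against 3.97, 1.67 and 4.47 CPM in condylar cartilage. The groups lay apart in both tissues, and the interval of the difference was -0.99 to 1.06. *Aldh1a3*, a retinoic acid synthesis gene, lay lower in both tissues without overlap, as did 82 genes in all (0.676%), with -1.15 in bone (limma adjusted p = 0.0397) and -0.54 in condylar cartilage (limma adjusted p = 0.801).

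The tissue macrophage genes went in both directions in bone. Of 13 tested, 10 had a positive effect, with a median of 0.09, and 2 rose (*Cd68* and *Csf1r*, both also of osteoclasts) and 2 fell (*C1qb* and *Lyz2*), against 0.239% and 0.0989% of all genes. The macrophage markers, 2 of which passed the filter, summed to 171, 154 and 123 CPM in *Fgfr2*+/S252W and 77.7, 102 and 104 CPM in *Fgfr2*+/+ bone, without overlap, and to at most 7.97 CPM in condylar cartilage. Most of this was *Cd68*, with 165, 149 and 117 against 50.3, 82.7 and 88.3 CPM in bone. The other macrophage markers summed to 6.28, 5.46 and 6.50 against 27.4, 18.9 and 15.6 CPM in bone, lower in *Fgfr2*+/S252W embryos without overlap. The differences were positive in 6 and negative in 7, with a median of -0.01 that was -0.49 without *Fgfr2*+/+ condylar replicate 3 and 0.54 without *Fgfr2*+/S252W condylar replicate 3. *C1qb*, a complement gene of macrophages, fell in bone with a log2 fold change of -2.24 (limma adjusted p = 0.0181) and had -1.98 in condylar cartilage, where its counts were 1, 1 and 0 and 2, 3 and 11. *Lyz2* (lysozyme), also of macrophages, fell in bone with a log2 fold change of -1.46 (limma adjusted p = 0.0305) and had 0.78 in condylar cartilage, a difference of -2.23 (95% interval -3.97 to -0.50, limma adjusted p = 0.856).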

How the data were processed

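RNA of laser-captured bone and condylar cartilage was amplified and sequenced as paired ends. The authors aligned reads to mm10 with STAR and deposited raw counts per Ensembl 75 gene from featureCounts v1.5.0-p1, without strand and without reads of several matches, so antisense and near-identical genes cannot be told apart. From the deposited counts of 12 libraries, 12138 of 38243 genes, those with an FPKM over 1 in 50% or more of the libraries, were normalized by TMM (edgeR 4.0.16) and fitted with voom, 1 mean per group and eBayes in limma 3.58.1 (R 4.3.3). P-values were two-sided and adjusted by Benjamini-Hochberg, with a threshold of 0.05, and measure the spread between 3 embryos per group.

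The comparison of both effects is the difference of the 2 within-tissue contrasts. Bone and condylar libraries of 1 number and genotype were taken as 1 embryo, which their short sample names imply and no label states. Their deviations from the group means correlated at -0.06 to 0.01, against -0.09 to 0.12 for libraries of different numbers, and the fit, like that of the study, has no block, with the embryo block as an alternative. Genes were named as the 12 smallest p-values of the difference in each direction, the genes the study names, up to 8 genes past the threshold in each direction in 1 tissue, and, from each list, members with an unadjusted p below 0.05 and the 3 with the highest mean CPM, and a gene that met the rule is not reported here. The members and lists were chosen with earlier results of these data known. The fit was tested on simulated data. Other settings tried were DESeq2 1.42.0, edgeR's quasi-likelihood test, other normalizations, filters, weights and blocks, and leaving out libraries or embryos.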

Additional observations from a re-analysis of the deposited data

How the results depend on the processing

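With 0 genes past the threshold for the difference of effects, the other settings gave 0 as well except for 17 with DESeq2, 8 with sample quality weights, 4 with a block for the replicate number within tissue, 0 to 3 with 1 library left out, 0 to 4 with both libraries of 1 embryo left out (4 without embryo 3 of *Fgfr2*+/+) and 50 without replicate 3 of *Fgfr2*+/+ bone and of *Fgfr2*+/S252W condylar cartilage, an alternative chosen after seeing the data. The count in bone, 41, was 5 with edgeR, 85 with DESeq2, 10 with all 18 libraries, 551 with quality weights, 256 with the number block, 0 to 408 with 1 library left out, 0, 0, 2, 6, 66 and 496 without embryos 1 and 2 of *Fgfr2*+/+, 2, 1 and 3 of *Fgfr2*+/S252W and 3 of *Fgfr2*+/+, 141 with the 6 bone libraries alone, 135 with 1 weight for each tissue, and 949 without both of these libraries, the last 2 chosen after seeing the data. The count of 0 in condylar cartilage became 19 with DESeq2 and 6 with the number block. The cause of these changes was not tested. Blocking by embryo changed no call for the difference. With the number block *Rpl15*, *Tppp3*, *Zfp185* and *Chrdl1* passed (limma adjusted p = 0.0260 for each). Libraries with the same number in both genotypes correlated at -0.13 to 0.26 and are not taken as pairs.

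Of 1371 values of 43 named genes under other settings, 1299 kept their sign and their side of the threshold, 42 passed it and 30 reversed. *Calcr* reversed to -2.05 with edgeR, -1.08 with DESeq2 and -0.51 with quality weights, and to -0.64 without embryo 1 of *Fgfr2*+/S252W, and its values with 1 library left out ran from -0.44 to 1.25. *Itgb3* ran from -0.054 to 1.62 with libraries left out and was -0.17 without embryo 1 of *Fgfr2*+/S252W. *Oscar* ran from -1.12 to 0.38 and was 0.30 without embryo 1 of *Fgfr2*+/+. *Aspn* was 0.049 with edgeR, 0.0066, 0.54 and 0.041 without embryos 3 of *Fgfr2*+/S252W and 1 and 2 of *Fgfr2*+/+, and ran from -1.67 to 0.36 with 1 library left out. *Igf1* ran from -0.43 to 2.88 with 1 library left out and was -0.60 with quality weights and -0.17 and -0.69 without embryos 1 of *Fgfr2*+/S252W and 3 of *Fgfr2*+/+. *Sfrp2* ran from -1.46 to 1.35 with 1 library left out and was 1.01 with edgeR, 1.02 with DESeq2, 0.69 with the embryo block, 0.46 with the number block, and 0.38 and 1.57 without embryos 2 of *Fgfr2*+/S252W and 1 of *Fgfr2*+/+. *Calcr* and *Oscar* had at most 7 counts in any condylar library, which limits what depth can show.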

Other observations

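In other gene lists the medians lay near the 0.03 of all genes or away from it, and 0 genes passed for the difference. Notch signaling had 0.08, secreted Wnt antagonists -0.02 and Indian hedgehog and PTHrP genes -0.04, but without *Fgfr2*+/+ condylar replicate 3 these were -0.25, -0.64 and -0.41, and Notch signaling had 0.39 without replicate 1 of that group. Of 23 genes of BMP and GDF signaling, 17 had a negative difference, with a median of -0.21 (to -0.33 without *Fgfr2*+/+ bone replicate 2). *Bmp4*, which encodes a ligand of the pathway, measured 21.8, 22.4 and 27.8 CPM in *Fgfr2*+/S252W and 37.7, 30.2 and 36.0 CPM in *Fgfr2*+/+ bone, and 28.9, 38.3 and 74.6 against 24.7, 16.1 and 32.6 CPM in condylar cartilage, a difference of -1.37 (limma adjusted p = 0.841). The receptor genes *Bmpr1a* and *Acvr2a* had -0.56 and -0.60. Of 25 genes of glycolysis and hypoxia, 20 had a positive difference, with a median of 0.39 that was 0.09 without the third *Fgfr2*+/S252W condylar library, 0.63 without the first, and 0.26 without *Fgfr2*+/+ condylar replicate 1. *Slc2a1*, the glucose transporter gene, measured 415, 229 and 158 against 391, 420.3 and 318 CPM in condylar cartilage and had log2 fold changes of 0.38 in bone and -0.58 in condylar cartilage.

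Imprinted growth genes had a median difference of -0.41 over 15 genes, 12 of them negative, and *Cdkn1c*, *Grb10*, *Mest* and *Zim1* had an unadjusted p below 0.05 (4 of 15, all negative, against 2.59% of all genes). *Mest* had -0.75 and *Grb10*, which encodes an adaptor that restrains insulin signaling, -0.40 (limma adjusted p = 0.911 and 0.930). Without replicate 3 of *Fgfr2*+/+ bone and of *Fgfr2*+/S252W condylar cartilage, *Mest* and *Zim1* had -1.17 and -1.82 (limma adjusted p = 0.0378 and 0.0471). Wnt ligands and targets had a median of -0.41 over 12 genes (-0.18 without the third *Fgfr2*+/S252W condylar library, and -0.21 and -0.24 without condylar replicate 2 of *Fgfr2*+/+ and *Fgfr2*+/S252W), with *Tcf7*, a transcription factor of the pathway, at -0.70. *Foxf1*, a target of hedgehog signaling, had -2.64 and rested on 3, 8 and 7 counts in *Fgfr2*+/S252W and 1, 3 and 0 counts in *Fgfr2*+/+ condylar cartilage. Of 15 genes of endothelium 7 had a positive and 8 a negative difference, with a median of -0.08 that was 0.48 without *Fgfr2*+/+ condylar replicate 2 and -0.34 without *Fgfr2*+/S252W condylar replicate 1. Those with an unadjusted p below 0.05 were *Pecam1* and *Flt1* (2 positive) and *Eng* (1 negative), against 2.62% and 2.59% of all genes. *Pecam1* and *Flt1* had condylar log2 fold changes of -1.54 and -1.15 against -0.05 and 0.15 in bone. Their condylar counts were 18, 15 and 15 against 55, 36 and 64 and 10, 15 and 15 against 31, 28 and 32. Both belong to the 10 of 15 endothelial genes with a mean condylar FPKM of at most 1, which passed the filter through bone. *Eng* had 0.54 in condylar cartilage and -0.32 in bone.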
